A study of Mus musculus with 2 samples.

Results

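Toll-like receptors are membrane proteins with which cells recognise parts of microbes. An outer domain built of leucine-rich repeats binds the ligand, and an inner TIR domain passes the signal through adaptors such as MyD88 to NF-kB and interferon regulatory factors. Some family members sit at the cell surface and bind lipids, lipoproteins or flagellin, and others sit in endosomes and bind nucleic acids. Peyer's patches are the lymphoid follicles of the small intestine, where phagocytes and lymphocytes lie beneath an epithelium that samples gut bacteria. The receptor genes described here are Tlr1 to Tlr9 and Tlr11, taken as the non-control probes that carry one of these 10 gene names on both arrays. They hold 20 of 56605 probes and 10 of 24813 named genes. Neither group was replicated, so no test was run and the values describe 2 arrays.

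S100A4-positive and S100A4-negative cells, 1 sample of each, came from C57BL/6 mice, and the animals of both samples carried the S100A4-GFP transgene. S100A4 is a small calcium-binding protein of many motile cells. Patches were digested for 60 min at 37 °C, and the cells were then separated by flow cytometry. The sources used here give neither the age or pooling of the animals nor the promoter of the transgene. The study set the expression profiles of the sorted fractions against each other.

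Total RNA was amplified to Cy3-labelled cRNA and hybridised to 2 one-colour Agilent arrays of 60-base probes. The scanner software marked 31042 of 59305 non-control spots as well above background on the S100A4-positive array (52.3%) and 31595 on the S100A4-negative array (53.3%), and 0 spots were saturated. Signals below are the software's processed intensities in arbitrary units. Differences are log2 of S100A4-positive over S100A4-negative after each array was divided by its own 75th percentile, 287 on the S100A4-positive and 446 on the S100A4-negative array. Errors are the scanner software's estimate for single spots (typically ± 0.21 for a difference), and variation from animal to animal or from sort to sort is not in them. A probe not well above background on 1 array has only a bound there, so its fold is written as at least the value against that array's lowest signal well above background (15.7 on the S100A4-positive and 16.1 on the S100A4-negative array) or against the dim probe's own signal where that is higher. S100a4 itself read 119341 on the S100A4-positive array and 1057 on the S100A4-negative array, a difference of 7.45 ± 0.20.

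The probes decide what is seen of each receptor, so 4 of their sequences are shown. The first 3 lie over the same short stretch of the TIR domain, in genes that gave different results, and the fourth is a Tlr4 probe that stayed below detection. A bright probe that carries the same gene name lies 87416 bases from the nearer of the other Tlr4 probes on mm9. Capitals mark TTTTGG, which in the stop-free reading frame of each of the first 3 encodes phenylalanine and tryptophan, the pair known as box 3 of the TIR domain. The sequences are those of the array files, 5′ to 3′ along the transcript, with positions on mouse build mm9.
Tlr1 A_51_P495581, chr5:65316115-65316174, minus strand: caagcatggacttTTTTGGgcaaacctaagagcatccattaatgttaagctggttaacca
Tlr2 A_51_P452629, chr3:83640344-83640403, minus strand: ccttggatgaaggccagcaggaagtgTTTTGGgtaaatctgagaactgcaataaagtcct
Tlr8 A_51_P176893, chrX:163680715-163680774, minus strand: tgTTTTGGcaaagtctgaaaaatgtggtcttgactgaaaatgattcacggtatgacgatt
Tlr4 A_55_P2603039, chr4:66500344-66500403, plus strand: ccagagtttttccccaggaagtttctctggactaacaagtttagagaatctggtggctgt
Of the 20 receptor probes 3 hold TTTTGG in a stop-free frame on the strand printed, against 576 of all 56605 probes (1.02%). The longest exact run shared between probes of different genes among these 10 was 8 bases.

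Most of the receptor genes were higher in S100A4-positive cells relative to the 75th percentile of each array, and Tlr1 was lower. Of the 10 genes, 7 were at least 2-fold higher in S100A4-positive cells relative to the 75th percentile, against 22.3% of all named genes above background as measured and 21.4% where a gene seen on 1 array takes its bound. The receptor count was 7 at the bounds too, but on the scale of the E1A spike-in controls it was 5 as measured and 1 (Tlr2) at the bounds. As measured, 955 of 15245 named genes were at least 2-fold higher on that scale. In the other direction 1 of 10 receptor genes, Tlr1, was at least 2-fold lower, against 19.7% of all named genes as measured and 17% at the bounds. Tlr4, by its brightest probe, and Tlr9 lay within 2-fold. Fewer cells of a type and less RNA per cell cannot be told apart in such samples.

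Detection differed between the arrays as well. Tlr3, Tlr5, Tlr8 and Tlr11 were well above background on the S100A4-positive array alone, which 7.49% of named genes were, and 0 of 10 receptor genes on the S100A4-negative array alone, which 7.56% of named genes were. A gene that passed the filter on dim signals through 1 array had to differ, so the count of 7 says less than the 6 genes measured on both arrays. Of these 6 genes, Tlr2, Tlr6 and Tlr7 were at least 2-fold higher and Tlr1 at least 2-fold lower, against 17.7% and 16.4% of the 12951 named genes measured on both arrays. Their median difference was 1.096, against 0.0068 for all such genes, with Tlr4 among the 6 only through its probe of an Ensembl transcript. By probe, 8 of 20 were well above background on both arrays, 5 on the S100A4-positive array alone, 1 on the S100A4-negative array alone and 6 on neither. The same split over all probes of the array is not given here. Counting each array by itself, 52.3% of all spots other than controls passed for S100A4-positive cells and 53.3% for S100A4-negative cells.

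**Figure D1:**
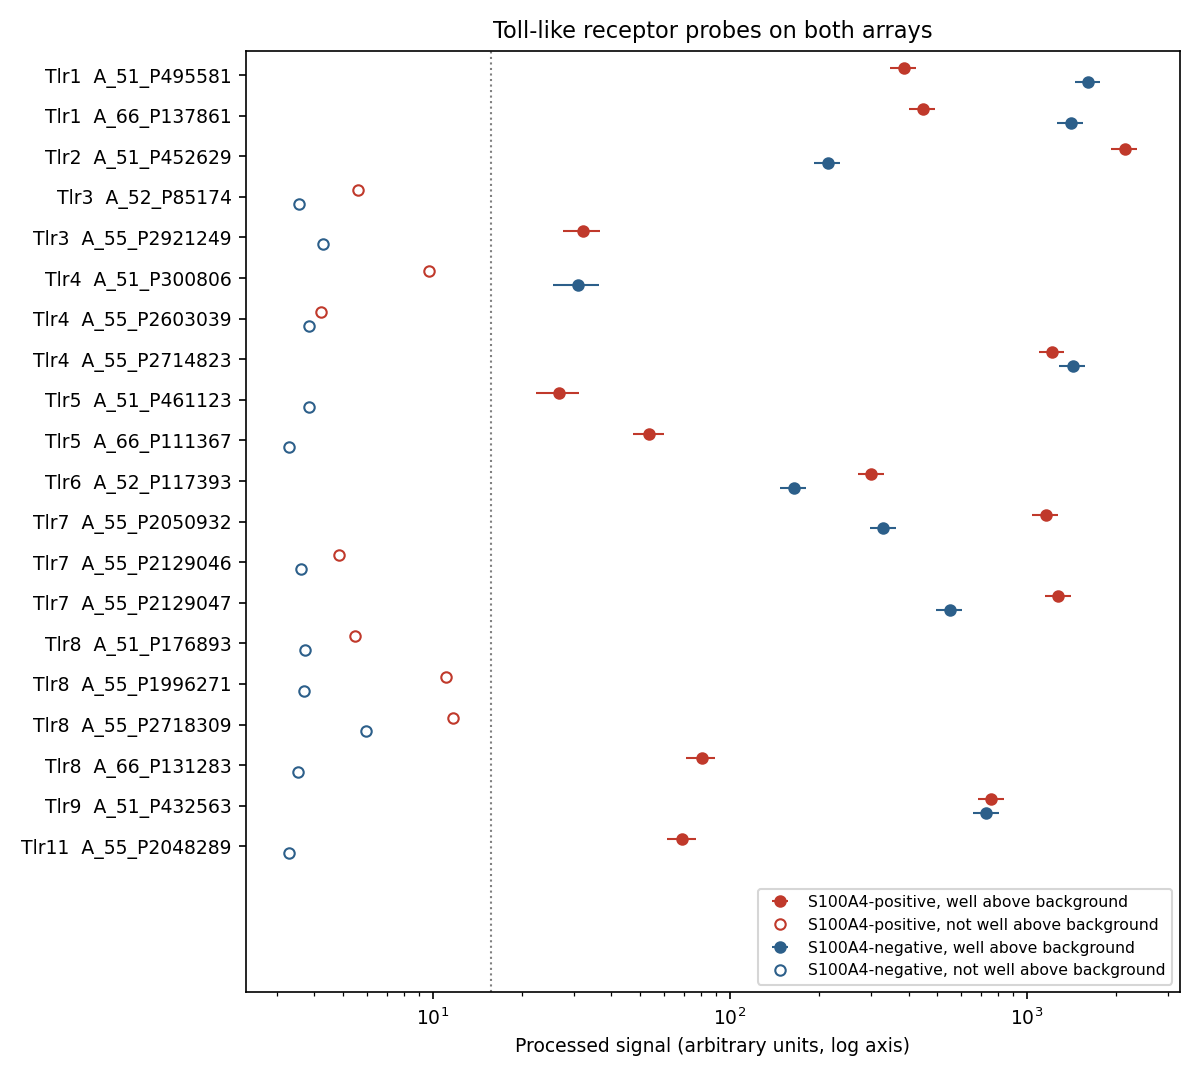
Processed signal (arbitrary units, log axis) of each of the 20 Toll-like receptor probes on the S100A4-positive array (red) and the S100A4-negative array (blue), before scaling. Bars are the scanner software's error, open circles are spots not well above background, and the dotted line is the lowest signal well above background on the S100A4-positive array, 15.7. The Tlr1 pair is brighter on the S100A4-negative array, while Tlr2 and both bright Tlr7 probes are brighter on the S100A4-positive array.

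Tlr2 recognises bacterial lipoproteins as a heterodimer, with Tlr1 for triacylated and with Tlr6 for diacylated ligands. The 3 partners gave 3 different results. Tlr2 had a signal of 2142 on the S100A4-positive array and 214 on the S100A4-negative array, a difference of 3.96 ± 0.21, or 15.6-fold. Among the 6 receptor genes measured on both arrays this was the largest difference, and it was larger than that of 95.4% of named genes. It stayed above 0 under each of 7 ways of scaling, the smallest value being 1.52 on the spike-in scale.

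Tlr6 read 300.0 on the S100A4-positive array and 164 on the S100A4-negative array, a difference of 1.501 ± 0.21 (2.83-fold) that turned to -0.94 on the spike-in scale. Tlr1, its neighbour on chromosome 5, was lower in S100A4-positive cells at both of its probes. The box 3 probe read 387 on the S100A4-positive array and 1609 on the S100A4-negative array (2.68-fold lower, difference -1.42 ± 0.20). The neighbouring probe, with the higher mean log2 signal, read 446 on the S100A4-positive array and 1410.0 on the S100A4-negative array, a difference of -1.03 ± 0.20. By this probe Tlr1 passed 2-fold by less than the scanner error, and with quantile normalization it stood at -0.99.

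A contrast between genes of the same pair of arrays does not move with a uniform scaling. The difference of Tlr6 exceeded that of Tlr1 by 2.53 ± 0.29 on the log2 scale, and over 7 ways of scaling the excess lay between 2.32 and 2.53 at the same 2 probes, or between 2.42 and 2.70 where each setting chose its own Tlr1 probe. Tlr2 exceeded Tlr1 by 4.99 ± 0.29 and Tlr6 by 2.46 ± 0.29. On mm9, 28190 bases separate the probes of Tlr1 and Tlr6, and these neighbours differed in opposite directions relative to the 75th percentile. Both were lower on the spike-in scale, Tlr6 by less.

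**Figure D2:**
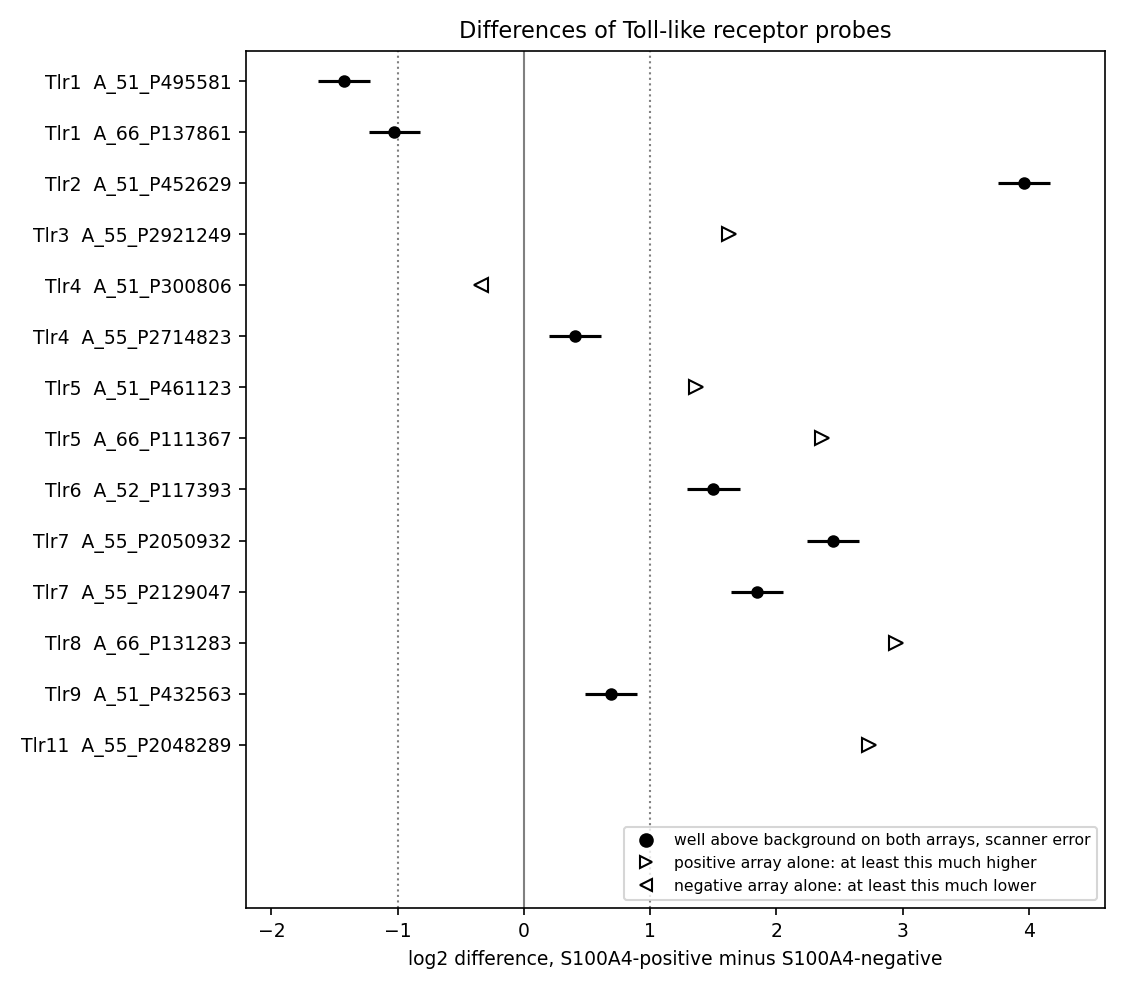
Log2 difference (S100A4-positive minus S100A4-negative) of the 14 receptor probes above background on at least 1 array. Filled circles with scanner error were measured on both arrays, open triangles are bounds and point in the direction the true value may lie, and dotted lines mark 2-fold. Tlr2 stands at 3.96 and the Tlr1 probes at -1.42 and -1.03, and on the spike-in scale each value would be shifted by -2.44.

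Promoters of Tlr2 and Tlr1 are shown because these partners lay on opposite sides of 0. They are the 250 bases before the gene start on build GRCm38, from RefSeq, with capitals for matches to an NF-kB motif (GGGA and CC with any 4 bases between them) and to GAGGAA, a core bound by PU.1, a myeloid and B cell factor. A core of the interferon response element (GAAA, any 2 bases, GAAA) was also searched, each motif on both strands. For Tlr1 the first of 2 listed starts is given, and the other start held no match to any of these motifs.
Tlr2 promoter, chr3:83841609-83841858, minus strand: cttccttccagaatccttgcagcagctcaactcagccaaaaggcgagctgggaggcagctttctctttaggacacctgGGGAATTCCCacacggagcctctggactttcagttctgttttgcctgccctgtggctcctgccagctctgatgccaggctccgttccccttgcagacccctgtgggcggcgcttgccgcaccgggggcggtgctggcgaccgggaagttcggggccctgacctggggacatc
Tlr1 promoter, chr5:64933559-64933808, minus strand: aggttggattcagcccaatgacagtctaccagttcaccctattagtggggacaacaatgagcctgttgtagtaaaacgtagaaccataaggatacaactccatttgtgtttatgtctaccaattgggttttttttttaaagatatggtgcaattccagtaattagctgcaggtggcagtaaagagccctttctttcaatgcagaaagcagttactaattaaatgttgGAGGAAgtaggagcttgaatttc
The table held promoters of 8 of the 10 receptor genes, 10 starts in all. The NF-kB motif was found for Tlr2, Tlr3 and Tlr5 (3 of the 10 starts), and in 17.6% of all 32851 promoters of the same length. GAGGAA was found for Tlr1 (at the start shown only), Tlr8, Tlr9 and Tlr11, which is 4 of the 10 starts, and in 23.3% of all promoters. The interferon response core was found for Tlr6 (at the first listed of its starts but not the other) and Tlr11. That is 2 of the 10 starts, against 2.98% of all promoters. These are matches of letters and not measured binding.

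Among the receptors of nucleic acids, Tlr7 was higher, Tlr9 lay within 2-fold, and Tlr3 and Tlr8 were seen in S100A4-positive cells alone. Tlr7, a sensor of single-stranded RNA, had signals of 1276 on the S100A4-positive array and 551 on the S100A4-negative array at its brightest probe, a difference of 1.85 ± 0.20. A second probe read 1157 on the S100A4-positive array and 329 on the S100A4-negative array, a difference of 2.45 ± 0.20. Both probes were thus higher relative to the 75th percentile, while on the spike-in scale the brightest stood at -0.60 and the second at 0.0046. The third Tlr7 probe, for another transcript record (NM_001290758), was well above background on neither array, with 4.82 on the S100A4-positive and 3.61 on the S100A4-negative array.

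Tlr9, a sensor of unmethylated CpG DNA that B cells and plasmacytoid dendritic cells are known to express, read 759.6 on the S100A4-positive array and 731 on the S100A4-negative array. After scaling its difference was 0.69 ± 0.20, under 2-fold, and -1.75 on the spike-in scale. The difference of Tlr7 exceeded that of Tlr9 by 1.16 ± 0.29, and by 1.14 to 1.38 over the 7 ways of scaling. Tlr9 in turn exceeded Tlr1 by 1.72 ± 0.29.

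Tlr8, the neighbour of Tlr7 on the X chromosome and like it a sensor of RNA, has 4 probes that did not give 1 answer. The probe of transcript record XM_011247787 read 80.4 on the S100A4-positive array and 3.52 on the S100A4-negative array, where it was not well above background, so that it was at least 7.72-fold higher. Its bound on the log2 scale fell from 2.95 to 1.38 with normexp background correction. The box 3 probe shown above read 5.48 on the S100A4-positive array and 3.72 on the S100A4-negative array, well above background on neither. The remaining pair, both of Ensembl transcripts, had 11.1 and 11.7 on the S100A4-positive array and 3.69 and 5.96 on the S100A4-negative array, also not well above background. The call for Tlr8 therefore rests on 1 probe of 4. One of the Ensembl probes spans 4343 bases of the genome with its 60 bases, which is how a probe across a splice junction appears.

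Tlr3, which binds double-stranded RNA, was seen at 1 of 2 probes. That probe read 32.0 on the S100A4-positive array, where 15.7 was the lowest signal well above background, and 4.26 on the S100A4-negative array, so that it was at least 3.08-fold higher. With normexp background correction its bound was 0.87 on the log2 scale, under 2-fold. The second Tlr3 probe read 5.60 on the S100A4-positive and 3.56 on the S100A4-negative array, well above background on neither. The bound of Tlr3 on the spike-in scale was -0.82, so no direction can be given there.

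Tlr5 binds bacterial flagellin, and Tlr11, a mouse receptor, binds a profilin of protozoa. Both were dim on the S100A4-positive array, and on the S100A4-negative array neither was well above background. The Tlr5 probes read 53.6 and 26.7 on the S100A4-positive array and 3.28 and 3.84 on the S100A4-negative array, so that they were at least 5.15-fold and at least 2.56-fold higher. The single Tlr11 probe read 69.3 on the S100A4-positive array and 3.27 on the S100A4-negative array, at least 6.66-fold higher. These bounds depend on the background handling. On the log2 scale normexp background correction lowered the bound of Tlr11 from 2.73 to 1.36 and that of the brighter Tlr5 probe from 2.36 to 1.19. On the spike-in scale the bound of Tlr11 stayed above 0 at 0.29, while that of the brighter Tlr5 probe was -0.08.

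Tlr4, the receptor for lipopolysaccharide together with Cd14 and Ly96 (MD-2), gave no settled direction. Its brightest probe read 1217 on the S100A4-positive array and 1427 on the S100A4-negative array, a difference of 0.40 ± 0.20. That probe is named for an Ensembl transcript and lies 87416 bases beyond the nearer of the other Tlr4 probes on mm9, while the RefSeq table gives the whole gene a length of 19031 bases. Both probes of the RefSeq transcript NM_021297 were dim. One read 9.73, not well above background, on the S100A4-positive array and 30.9 on the S100A4-negative array, at least 1.27-fold lower in S100A4-positive cells. The other, whose sequence is given above, read 4.19 and 3.84 on the S100A4-positive and S100A4-negative array, well above background on neither. By the probes of the RefSeq transcript, Tlr4 was well above background in S100A4-negative cells only, with a signal of 30.9 where 16.1 was the lowest well above background.

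**Figure D3:**
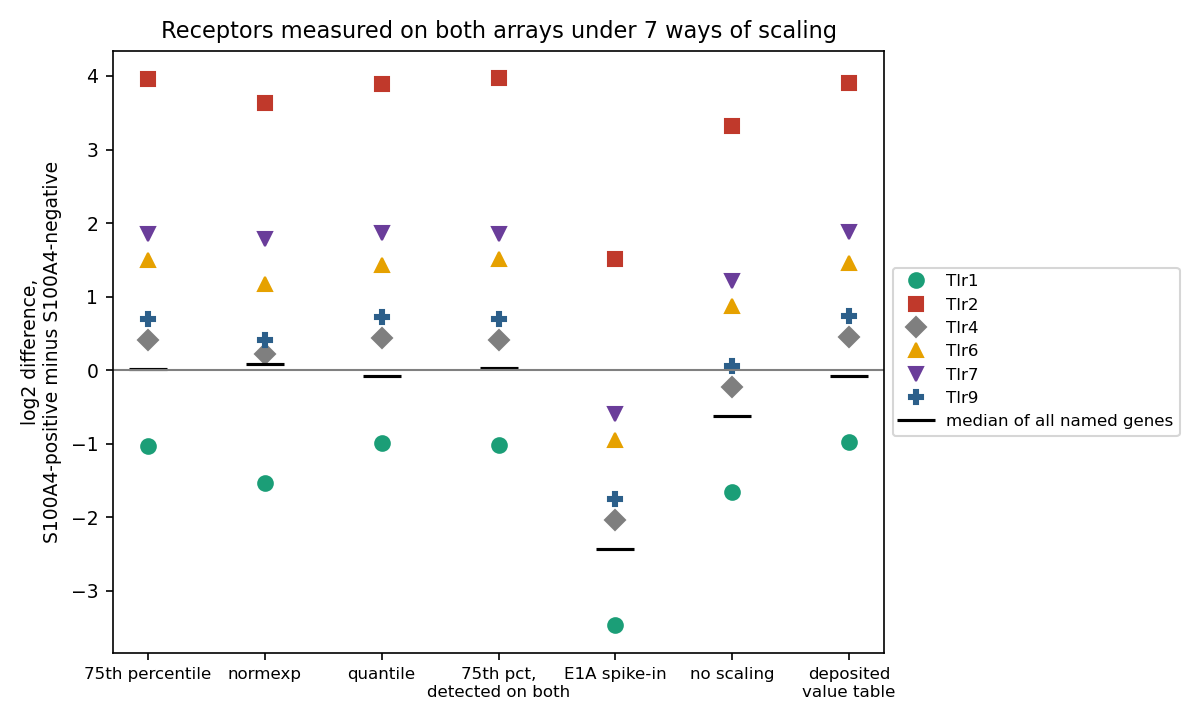
Log2 difference (S100A4-positive minus S100A4-negative) of the 6 receptor genes measured on both arrays under 7 ways of scaling, with the median of all named genes as a black bar. Tlr2 stays above 0 and Tlr1 below 0 throughout, Tlr4 is below 0 without scaling (-0.23), and Tlr4, Tlr6, Tlr7 and Tlr9 are below 0 on the spike-in scale, where the median of all genes is -2.43. Tlr4 is shown at its probe of an Ensembl transcript.

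The scale of the comparison matters for most of these directions. The signal of the E1A spike-in controls was 3.51 times as high on the S100A4-positive as on the S100A4-negative array, and scaling on them shifted each difference by -2.44. With no scaling the shift was -0.63. Of all calls past 2-fold, 53.1% were higher relative to the 75th percentile, against 6.99% on the spike-in scale and 28.8% with no scaling. The sources used here do not say how much RNA was labelled for each array. Relative to the median of all genes, Tlr1 was below it and the other 5 genes measured on both arrays above it under all 7 ways of scaling. For Tlr4 this holds only at its probe of an Ensembl transcript. With probes of RefSeq accessions only, Tlr4 stood at -1.03 as measured.

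The other genes of the family and pathway were taken from lists of partners, chaperones, adaptors, kinases, factors, inhibitors and outputs. Tlr12 and Tlr13, the remaining members of the mouse family (Tlr13 binds bacterial ribosomal RNA), had differences of 3.06 ± 0.20 and 3.67 ± 0.21, and 0.61 and 1.23 on the spike-in scale. Tlr12 read 3600.1 on the S100A4-positive array and 672 on the S100A4-negative array, and Tlr13 read 1324 on the S100A4-positive array and 161 on the S100A4-negative array. Of 79 measured genes in the other lists, 31 were 2-fold higher or more and 4 were 2-fold lower or more relative to the 75th percentile. Of all named genes 22.3% and 19.7% were. On the spike-in scale 12 of the 79 were 2-fold higher or more and 54 were 2-fold lower or more. On that scale 955 and 12701 of all 15245 named genes were. Without the outputs 16 of 61 were higher (26.2%), near the 22.3% of all named genes.

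Of 6 measured co-receptors, 3 were at least 2-fold higher and 0 lower relative to the 75th percentile, against 22.3% and 19.7% of all named genes, but 1 higher and 5 lower on the spike-in scale. Cd14, which hands lipopolysaccharide to Tlr4, read 4322 on the S100A4-positive array and 134 on the S100A4-negative array, a difference of 5.64 ± 0.21. Ly96, the ligand-binding partner of Tlr4, was at 0.38, and so did not share the size of Cd14. Cd36, a scavenger receptor that works with Tlr2 and Tlr6, was at 1.40. Cd180, a Tlr4-like surface protein of B cells, was at -0.66, whereas its own partner Ly86 (MD-1) was at 1.26. Hmgb1, a nuclear protein that can act as a ligand, was at -0.46, and Lbp was well above background on neither array.

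Chaperones and trafficking genes fold and move the receptors, and proteases cut them. All 7 chaperones and trafficking genes lay within 2-fold relative to the 75th percentile, as did 58.0% of all named genes. They ran from -0.44 for Ap3b1 to 0.44 for Cnpy3. On the spike-in scale all 7 were at least 2-fold lower, as were 12701 of 15245 named genes. Unc93b1, which carries the nucleic acid receptors to endosomes, was at 0.20, and Hsp90b1, the chaperone gp96, was at -0.14. Slc15a4, an endolysosomal transporter, was at -0.07 (up to 1.84 at another probe) and Lrrc59 at 0.06, with Cnpy4 at 0.018. Of 5 proteases that cleave endosomal receptors, 3 were at least 2-fold higher and 0 lower, against 22.3% and 19.7% of all named genes, but 1 and 2 on the spike-in scale. Ctsl stood at 5.35, Ctsb at 2.46 and Ctss at 1.79, while Ctsk was at 0.48 and Lgmn (asparagine endopeptidase) at -0.02. The other detected Ctsl probe gave 2.28.

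Of 6 adaptors, 1 was at least 2-fold higher and 2 were lower as measured, against 22.3% and 19.7% of all named genes, and 0 and 1 at the bounds. Myd88, the adaptor of all family members but Tlr3, read 2401 on the S100A4-positive array and 3017 on the S100A4-negative array, a difference of 0.30. Tirap, which bridges Tlr2 and Tlr4 to Myd88, read 87.1 on the S100A4-positive array and 465 on the S100A4-negative array, a difference of -1.78 ± 0.21. Ticam1 (TRIF), the adaptor of Tlr3, was at 0.27 and Pik3ap1, a B cell adaptor, at -0.28. Ticam2 was seen on the S100A4-positive array alone, at least 1.98-fold higher, and Sarm1 on the S100A4-negative array alone, with no fold to give. Of 15 kinases and ubiquitin ligases, 0 were at least 2-fold higher and 1 lower (22.3% and 19.7% of all named genes), Btk at -2.79, a kinase of B cell receptor signalling. The count of 0 depends on the probe taken. At other detected probes Ikbkb reached 2.30, Traf6 1.89, Irak2 1.77 and Tab2 1.47, while Btk alone had a detected probe 2-fold lower or more. As measured, all 6 adaptors and all 15 kinases and ligases were at least 2-fold lower on the spike-in scale, as were 12701 of 15245 named genes. For Ticam2, seen on the S100A4-positive array alone, the bound on that scale was -1.46, so no direction can be given there.

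The 12 inhibitors and 18 outputs, among 79 measured pathway genes, together held 21 of the 31 higher genes. Of 10 transcription factors, 3 (against 22.3% of all named genes) were at least 2-fold higher, Relb (1.54), Irf7 (1.51) and Nfkb2 (1.22), and 0 lower, but 0 higher and 8 lower on the spike-in scale. The lowest detected Relb probe gave 0.90. At other detected probes Irf5, Nfkb1, Rel and Irf8 reached 2.15, 1.69, 1.21 and 1.16, and no detected probe of these factors was 2-fold lower. Of 12 inhibitors, 6 were at least 2-fold higher, against 22.3% of all named genes. They were led by Nfkbia (2.26), Nfkbiz (1.97), Tnip1 (1.65) and the ubiquitin-editing enzyme gene Tnfaip3 (1.58). Irak3 (IRAK-M), an inhibitory kinase-like protein, was the 1 lower member at -2.53, although its probes ranged from -2.53 to -0.71. Of all named genes 19.7% were lower. On the spike-in scale 0 inhibitors were higher and 7 lower, against 955 and 12701 of 15245 named genes.

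Of 18 measured outputs, genes that receptor signalling can switch on, 15 passed 2-fold upward and 0 downward, against 22.3% and 19.7% of all named genes. On the spike-in scale 10 and 4 did, against 955 and 12701 of 15245 named genes. Their median difference was 3.64, or 3.45 at bounds, against 0.017 and 0.054 for all named genes. Il1b stood at 5.73, Il6 at 5.62, Ptgs2 (cyclooxygenase 2) at 5.04 and Cxcl1 at 4.75. Ifnb1, the gene of interferon beta, was at least 37.3-fold higher and Il12b at least 10.4-fold higher, both on the S100A4-positive array alone. Outputs are also set by other pathways, and the arrays hold no measure of receptor activity. Of the 18 outputs, 13 stayed above 0 on the spike-in scale.

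**Figure D4:**
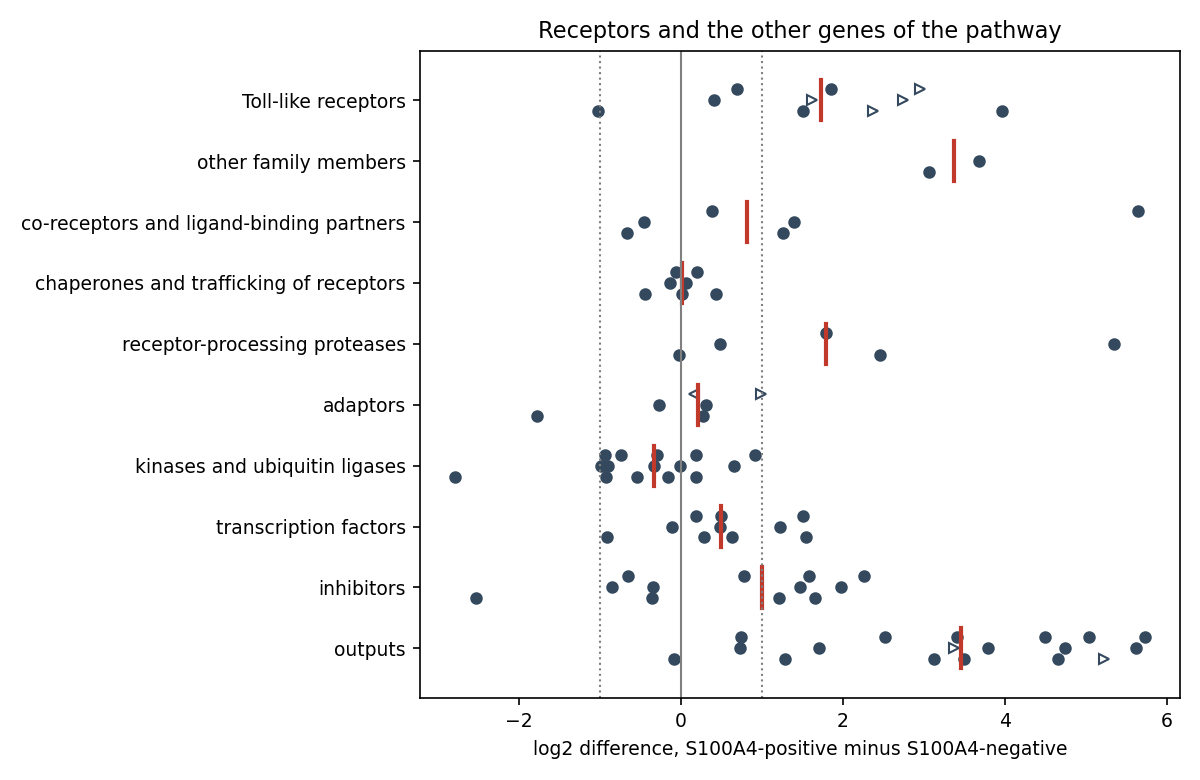
Log2 difference (S100A4-positive minus S100A4-negative) of each receptor gene and of each gene in 9 lists of the pathway, with the list median as a red bar and 2-fold as dotted lines. Circles were measured on both arrays, and triangles are bounds of genes seen on 1 array, pointing right for at least and left for at most. Chaperones cluster around 0, while 15 of 18 outputs lie beyond 2-fold, and on the spike-in scale each value would be shifted by -2.44.

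Markers of several cell types differed between the fractions too, and some of these types are known to carry the receptors. Each of 10 markers of macrophages and monocytes was higher in S100A4-positive cells by 2-fold or more, with a summed scaled signal of 576 in S100A4-positive and 9.004 in S100A4-negative cells, and C1qa, Lyz2 and Csf1r at 7.13, 6.31 and 6.36 (1.54 at the other detected Csf1r probe). So was each of the 7 measured markers of classical dendritic cells (102 in S100A4-positive against 7.53 in S100A4-negative cells), with Xcr1 above background on neither array. For plasmacytoid dendritic cells 5 of 7 markers passed 2-fold upward (372 in S100A4-positive against 104 in S100A4-negative cells), among them Bst2 at 4.17. The others, Siglech and Tcf4, were at 0.37 and 0.03 (up to 8.64 and 3.40 at other detected probes). Each of the 8 B cell markers was lower by 2-fold or more (20.1 in S100A4-positive against 418 in S100A4-negative cells), with Cd79a and Ms4a1 at -6.14 and -5.21. Of all named genes, 22.3% were higher by 2-fold or more and 19.7% were lower, as measured. On the spike-in scale 10 of 10, 6 of 7 and 4 of 7 markers of the first 3 types stayed above 0, and 8 of 8 B cell markers below 0. The median of all named genes was -2.43 on that scale.

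Markers of other cell types of the patch differed in both directions relative to the 75th percentile, with the spike-in shift of -2.44 to be added. The counts are of genes past 2-fold, which 22.3% of all named genes passed upward and 19.7% downward. Of 7 measured T cell genes 5 were lower, and of 8 enterocyte genes 6 were lower. Of 7 measured neutrophil genes 1 was higher and 3 were lower, of 5 Paneth cell genes 3 were higher, of 4 measured endothelial genes 3 were higher, and of 5 measured stromal genes 3 were higher and 1 was lower. The summed scaled signals in S100A4-positive against S100A4-negative cells were 16.3 against 110 for T cells, 4.56 against 30.1 for enterocytes, 124 against 83.7 for neutrophils, 57.4 against 4.10 for Paneth cells, 3.25 against 0.605 for endothelium and 3.26 against 0.862 for stroma. A single gene carried 2 of these sums, so that neutrophils had 1.14 in S100A4-positive against 2.92 in S100A4-negative cells without Csf3r, and Paneth cells had 3.50 in S100A4-positive against 3.37 in S100A4-negative cells without Lyz1. The part of these markers in the receptor differences was not tested. The 6 receptor genes measured on both arrays ran from -1.03 (Tlr1) to 3.96 (Tlr2) relative to the 75th percentile, and from -3.47 to 1.52 on the spike-in scale. Among them Tlr9 and Tlr7 were at 0.69 and 1.85 relative to the 75th percentile, and at -1.75 and -0.60 on the spike-in scale.

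**Figure D5:**
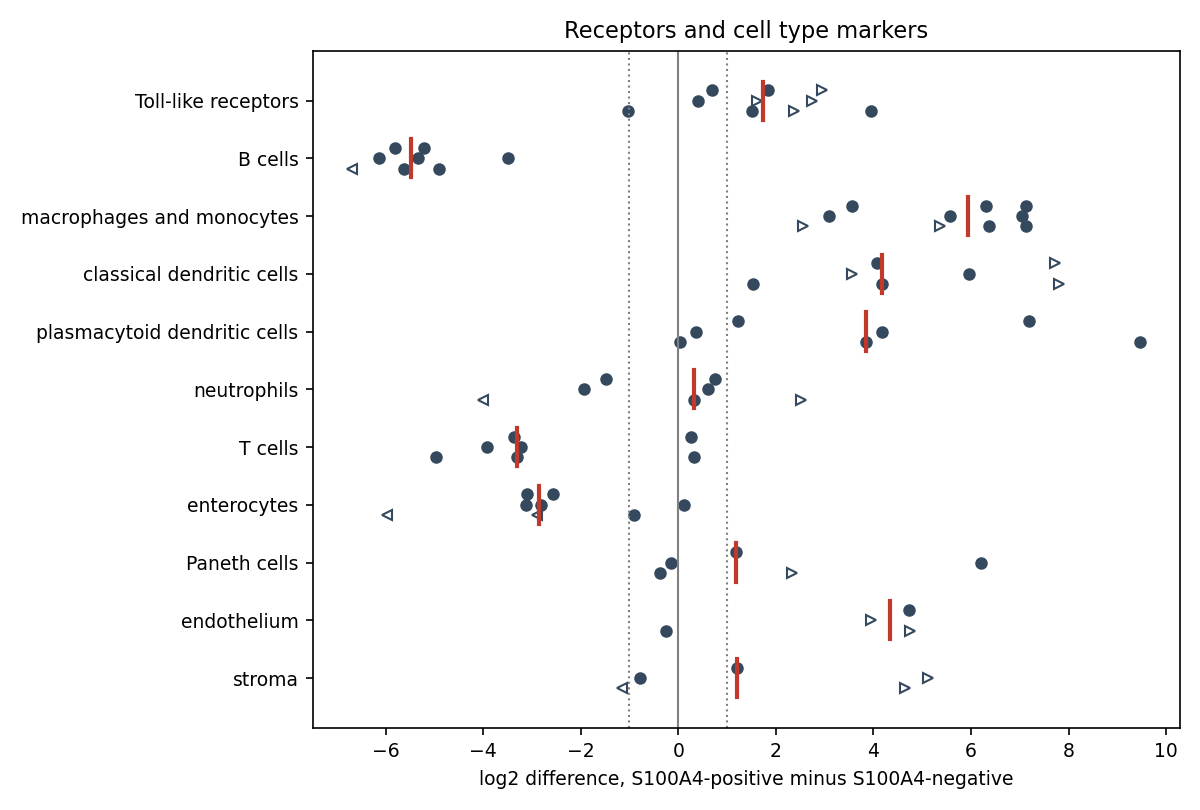
Log2 difference (S100A4-positive minus S100A4-negative) of each receptor gene and of marker genes of 10 cell types, with symbols, medians and dotted lines as for the pathway lists. B cell markers lie between -6.68 and -3.48 and macrophage and monocyte markers between 2.55 and 7.13, and the receptor genes measured on both arrays lie between -1.03 and 3.96. On the spike-in scale each value would be shifted by -2.44.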

How the data were processed

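Per the file headers, the authors scanned 2 one-colour arrays (Agilent design 74809, build mm9) on 1 slide. The scanner software was Agilent Feature Extraction, version 10.7.1.1 per the file headers and 9.5.1.1 per the submitters' processing notes. The deposited files hold a background-subtracted, spatially detrended signal intensity per spot, with surrogates for spots not above background, an error estimate and flags. These deposited intensities were not normalized between arrays. The deposited value table (median 19.6 in both columns, linear, correlated with the scanner signals at 0.9997 and 0.9998 on the log2 scale) was an alternative only, and its normalization and centring are not stated.

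Control and outlier spots were left out. Log2 signals were centred on the 75th percentile. Other probes were named through RefSeq accessions (32979), symbols (10219) or synonyms (520) of a GRCm38 table, and 12867 were unnamed. Of 20 receptor probes, 15 had an accession in that table, all with the same symbol. A gene took its probe with the highest mean log2 signal among those well above background on at least 1 array. All receptor genes, S100a4 and the members of the smaller lists are named, and from kinases, factors, inhibitors and outputs up to 4 each way past 2-fold and up to 3 seen on 1 array. The values of 1 B cell marker are not reported here. Members, lists and the rule were chosen with earlier results of these data known.

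With 1 array per group no test was possible, so a size of 2-fold was used. The number of arrays limits the precision. Results were recomputed under 10 other settings and 1 more chosen after seeing the data. Steps were run in Python 3.11.15 (numpy 2.4.6, pandas 2.3.3) and R 4.3.3 (limma 3.58.1) and tested on simulated data.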

Additional observations from a re-analysis of the deposited data

How the results depend on the processing

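With 1 array per group and no replicate to leave out, these alternatives bound only the processing. No paired analysis was possible because each group holds 1 sample. The count of 7 receptor genes at least 2-fold higher was 5 to 7 under the other settings, except 3 with probes well above background on both arrays only. The count of 1 lower gene was 0 with quantile normalization and with the deposited value table, 3 on the spike-in scale and 2 (Tlr4 joining Tlr1) with probes of RefSeq accessions only, a setting added after the data were seen. The median difference of 2.70 over the 10 receptor genes was 1.33 with normexp, 2.48 with quantile normalization, 2.49 with the value table, 2.06 with no scaling, 0.25 on the spike-in scale, 1.73 with genes seen on 1 array at their bound and 1.096 over genes measured on both. Of the pathway genes 12 were higher on the spike-in scale, and the number lower was 54 there, 16 with no scaling, 8 with quantile normalization and 7 with the value table. On the spike-in scale 12701 of 15245 named genes were at least 2-fold lower.

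On the spike-in scale Tlr6 turned to -0.94 and Tlr7 to -0.60, and Tlr4 and Tlr9, within 2-fold before, to -2.04 and -1.75. Probes well above background on neither array also turned: Tlr4 A_55_P2603039 (-1.68), Tlr3 A_52_P85174 (-1.16), Tlr7 A_55_P2129046 (-1.39), and Tlr8 A_51_P176893 (-1.25), A_55_P1996271 (-0.22) and A_55_P2718309 (-0.84). With normexp Tlr4 A_51_P300806 turned to 0.15. These follow from the uniform shift of -2.44, except the last, whose cause was not tested. Signal over background limits Tlr3, Tlr4, Tlr5, Tlr8 and Tlr11 most.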

Other observations

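Several pathway genes gave different answers at different detected probes, given here as measured log2 differences (S100A4-positive minus S100A4-negative) without bounds. These were picked after their values were seen. The probes of Cd86 ranged from -0.14 to 2.42, those of Ikbkb from -0.35 to 2.30, those of Irf5 from 0.18 to 2.15, those of Traf6 from -0.38 to 1.89 and those of Rel from -0.12 to 1.21. The 3 detected probes of Siglech, a plasmacytoid dendritic cell marker, ranged from 0.37 to 8.64. The probes of Cd14, Il6 and Tnf differed by under 0.5 on the log2 scale.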
